A study of Mus musculus with 6 samples.

Results

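Nuclear receptors and their coregulators were examined in microdissected epithelium of mouse gonadal primordia at embryonic stage E10.5, in pools lacking Emx2 and in wild-type pools. The members were every probe set whose gene symbol in the platform annotation was exactly that of a listed gene: nuclear receptors other than Nr5a1, Nr5a2 and Nr0b1, and the coregulators of the Ncoa and Ncor families with Nrip1. Of 41 genes listed, 39 were found, with 113 of the 45101 probe sets on the array. Ncor1 and Nr1h2 had no probe set named by their symbol alone and were not analysed here. There were 3 pools of Emx2 knockout fetuses (KO, labelled -/-) and 3 of wild-type fetuses (labelled +/+), and each pool joined tissue of 3 fetuses cut out by laser. Emx2 is a homeobox gene required for the urogenital system. The labels give no strain, allele or litter, so p-values measure the spread between these pools.

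Nuclear receptors are transcription factors that bind DNA through a zinc finger domain, and many are switched by a small lipid-soluble ligand such as a steroid, retinoic acid, thyroid hormone or a fatty acid. Orphan members, such as the COUP-TF and NR4A groups, act without a known physiological ligand. Coactivators of the Ncoa family and corepressors such as Ncor1 and Nrip1 dock on the ligand-binding domain and set whether a bound receptor raises or lowers transcription. In the gonadal primordium the orphan receptor Nr5a1 is required for the gonad to form, and retinoic acid signals through Rar and Rxr partners in the same region.

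The arrays gave 1 intensity per probe set, scaled here to a common level between arrays. Log2 intensities of 2 arrays correlated across tested probe sets with r of 0.977 to 0.983 within a group and 0.964 to 0.972 between groups. Emx2 itself, read by 1 probe set, did not pass the test (1634 in KO against 1716 in wild-type pools, log2 fold change −0.05, adjusted p = 0.916), so it does not check the labels. The KO pools also differed from the wild-type pools in the sex-linked genes listed: Xist averaged 9512 in KO and 34.6 in wild-type pools, and the 3 Y-linked genes tested were lower in KO. Single pools read 9321 to 9888 for Xist in KO and 13.3 to 69.9 in wild type, so sex and genotype cannot be told apart in any comparison here. No member gene lies on the X or Y chromosome by the RefSeq table of GRCm38.p6, but this position does not show whether their values depend on sex. Cell type markers were read at each gene's brightest probe set, where 5.41% of all 12315 genes were called, 2.93% higher and 2.48% lower. Of 16 tested markers of mesenchyme, the tissue under the epithelium, 8 rose and 1 fell. Their summed intensity was 22055 to 23126 in KO against 15316 to 17368 in wild-type pools. Of 13 endothelial markers 4 rose and 0 fell, with sums of 2237 to 2595 in KO and 1345 to 1810.5 in wild-type pools. Other lists held called genes that fell: 2 of 6 for the mesonephros and nephric duct (sums of 737 to 966 in KO and 910.0 to 1021 in wild-type pools), 2 of 9 for germ cells (1745 to 2440.1 in KO and 2392 to 2495 in wild-type pools), in each of which 0 rose, and 1 of 7 for neural crest and neurons, in which 1 rose (685 to 1033 in KO and 1004 to 1265 in wild-type pools). For blood 1 of 8 rose and 0 fell, and for gut and liver 0 of 7 passed. The brightest genes, called or not, weigh most in each sum. Calb1 averaged 614 in KO and 541 in wild-type pools in the nephric list. In the germ cell list Ifitm3 averaged 800 and 761, and Sall4 654 and 804. None of these 3 genes was called. Of the called markers, Emcn (endothelium) averaged 22.0 in wild-type pools, and Lhx1 (nephric duct) and Dct (neural crest) averaged 20.7 and 23.8 in KO pools. These means lie below the limit for testing, 26.4, so each gene was tested through its other group. The part of any of these cell types in the results below was not tested. In pooled tissue, fewer cells of a type and less RNA per cell cannot be told apart. Of 13 tested markers of the labelled epithelium, 3 rose and 3 fell, and their sums were 23189 to 26474 in KO and 25024 to 27515 in wild-type pools. Those called were Nr5a1 (−1.22), Aldh1a1 (−1.26) and Krt8 (−0.59), which fell, and Krt19 (1.02), Tcf21 (0.71, also in the mesenchyme list) and Bnc1 (0.49), which rose (log2 fold changes).

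The corepressor gene Nrip1 gave the highest number of called probe sets among the members. It rose in the KO epithelium at 3 of its 4 tested probe sets, by 1.38-fold to 2.37-fold. Nr2f2, an orphan receptor of mesenchyme, rose at 2 of 6 tested probe sets, and the orphan receptor gene Nr4a2 and the coactivator gene Ncoa2 rose at 1 probe set each. Rxrb, a shared partner of many receptors, was the member that fell, to 0.673 times the wild-type level on the log2 average. These 5 genes held the 8 called probe sets. For the other 22 genes with a tested probe set no difference passed, and 12 genes were too dim to be tested.

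In all, 61 of the 113 probe sets, of 27 genes, lay above the dim limit and were tested with limma. The limit was a mean log2 value of 4.72, which is 26.4 as an intensity. A probe set is called where its p, adjusted by the Benjamini-Hochberg method over all 27022 tested probe sets, lies below 0.05. Of the 61, 7 were called higher and 1 lower in KO pools, 8 in all (13.1%), where 4.68% of all tested probe sets were called, 2.75% higher and 1.93% lower. Probe sets of 1 gene share their source, so these are not independent. Counted once per gene, at its probe set of highest mean intensity, 2 genes rose (Nr2f2 and Nrip1), 1 fell (Rxrb) and 24 did not pass, where 5.41% of 12315 genes were called in the same way, 2.93% higher and 2.48% lower. The median log2 fold change was 0.20 over the 61 probe sets and 0.01 over all those tested. At the gene level it was 0.07 over 27 genes and −0.01 over all. The 3 KO values lay wholly above or below the 3 wild-type values in 23 of the 61 (37.7%), where 22% of all tested probe sets did so. An unadjusted p under 0.05 was found for 17 of the 61 and, at a lower share, for 4676 of all 27022 tested probe sets (17.3%).

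The counts changed with the processing. The 8 calls fell to 0 when dim probe sets were kept in the fit and to 1, of another gene, when the fit had no intensity trend. Under quantile normalization or scaling to a common median 6 member probe sets were higher and 2 lower, against 7 and 1 here. With the values as deposited 4 were higher and 0 lower, and the split over all probe sets was 579 higher and 267 lower, against 742 and 522 here. With 1 pool left out the count was 4, 5 and 3 without KO replicates 1, 2 and 3. It was 3, 7 and 10 without wild-type replicates 1, 2 and 3.

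**Figure D1:**
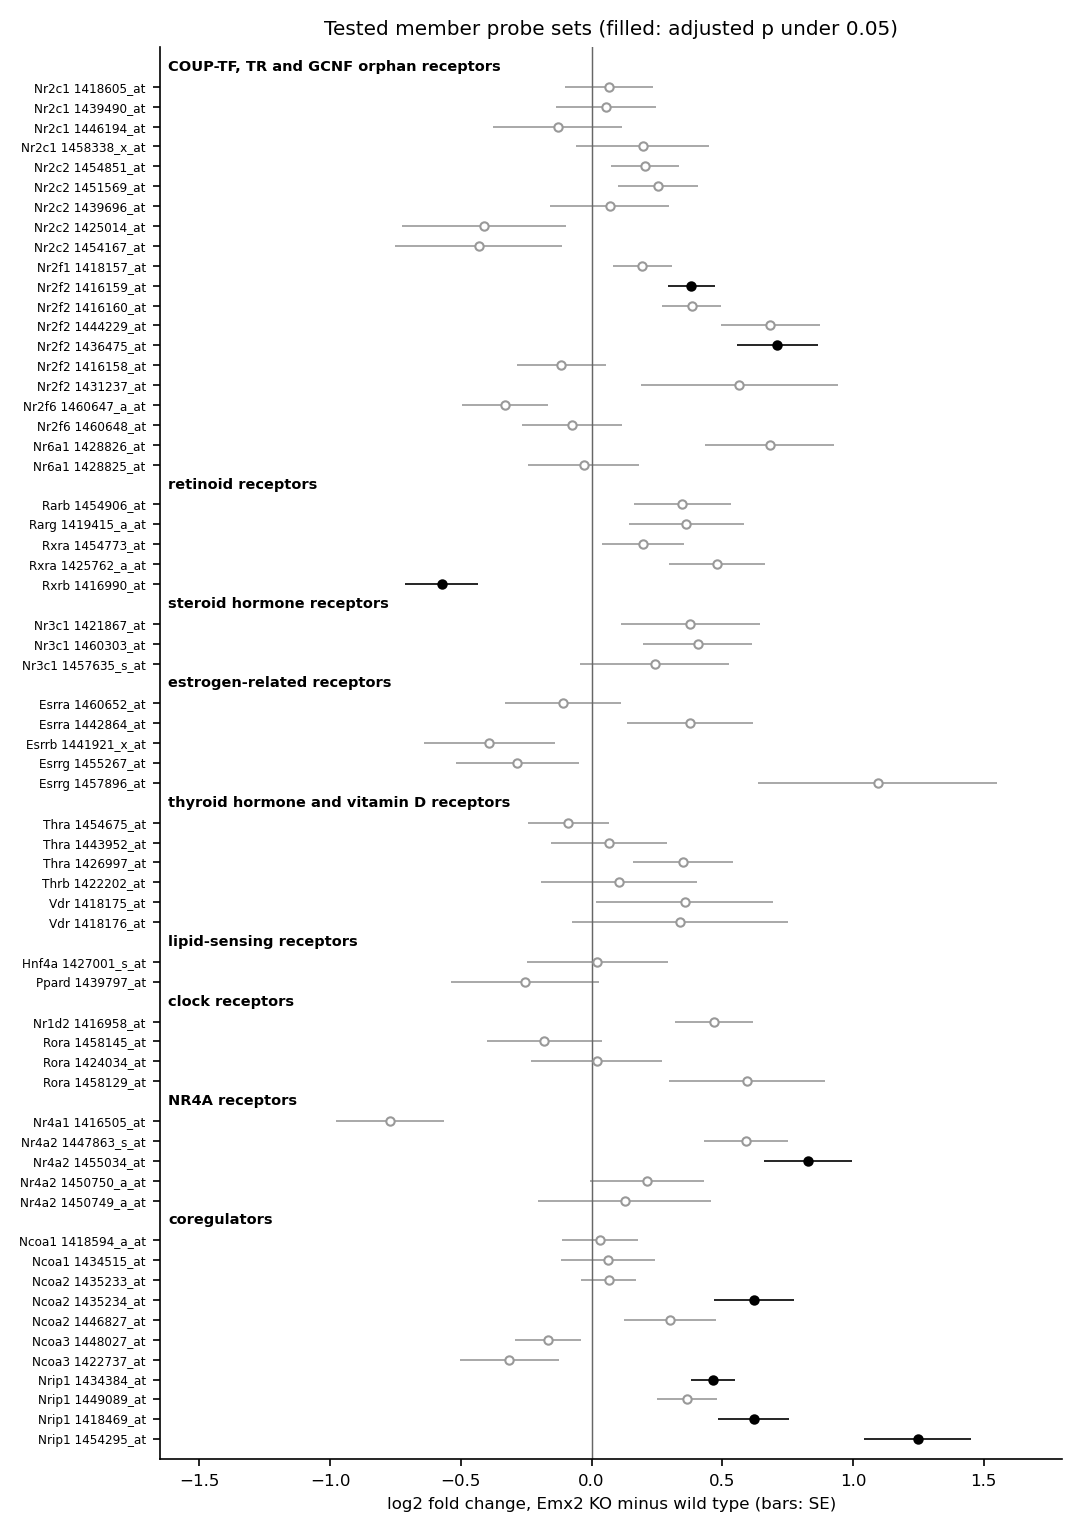
Log2 fold changes of all 61 tested member probe sets, KO minus wild type, grouped by role, with bars for the SE and filled points for adjusted p under 0.05 (3 pools per group). The 8 filled points belong to Nr2f2, Rxrb, Nr4a2, Ncoa2 and Nrip1, and Rxrb is the filled point on the negative side.

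Among the orphan receptors of the COUP-TF, testicular receptor and germ cell nuclear factor groups, all 6 genes had a tested probe set and Nr2f2 alone was called. Nr2f2 encodes COUP-TFII, which acts in mesenchyme, veins and the atria of the heart. At its probe set of highest intensity (1416159_at) it read 2676, 2465 and 2623 in KO pools, against 1894, 2112 and 1954 in wild-type pools. The groups did not overlap, and every KO pool was the higher (log2 fold change 0.38, SE 0.09, adjusted p = 0.0277). At probe set 1436475_at it read 1718, 1157 and 1608 in KO pools, against 757, 977 and 984 in wild-type pools. The groups again did not overlap, and the difference was larger (0.71, SE 0.16, adjusted p = 0.0186). Of the other probe sets, 1416160_at gave 0.38 (adjusted p = 0.0842) and 1444229_at gave 0.68 (adjusted p = 0.0613), both with non-overlapping groups. The dimmer 1416158_at read 217, 163 and 181 in KO and 220.5, 191 and 193 in wild-type pools (−0.12, adjusted p = 0.799), so the probe sets of this gene disagree. The dimmest, 1431237_at, gave 0.57 (adjusted p = 0.494). Probe set 1416159_at did not pass without KO replicate 1 (0.36), 2 (0.42) or 3 (0.37), without wild-type replicate 1 (0.35), with the replicate number as a block (adjusted p = 0.0568) or after scaling to a common median (adjusted p = 0.0604). Probe set 1436475_at did not pass without KO replicate 1 (0.60), KO replicate 3 (0.65) or wild-type replicate 1 (0.59). Of the 16 tested mesenchyme markers, 8 were called higher in KO, 1 lower and 7 did not pass, and the part of such cells in the Nr2f2 values was not tested.

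Nr2f1, the closest relative of Nr2f2, read 3417, 3348 and 3864 in KO pools, against 3609, 2644 and 3089 in wild-type pools. The groups overlapped, and wild-type replicate 1 lay above KO replicates 1 and 2 (0.19, SE 0.11, adjusted p = 0.416). Nr2f6, a further COUP-TF relative, averaged 508 ± 76.9 in KO and 642 ± 119 in wild-type pools at its higher probe set (SD, n = 3 each; −0.33, SE 0.16, adjusted p = 0.328). Nr6a1, the germ cell nuclear factor that silences pluripotency genes in the early mouse embryo, read 290.0, 439 and 291 in KO pools, against 198, 148 and 307 in wild-type pools at probe set 1428826_at. Wild-type replicate 3 lay above 2 of the KO pools, and the gene did not pass (0.68, SE 0.25, adjusted p = 0.163). It passed without that pool (0.96, adjusted p = 0.0229), while its other tested probe set gave −0.03. Nr2c1 and Nr2c2, the testicular receptors, repress embryonic globin genes. Their 9 tested probe sets ranged from −0.43 to 0.25, with adjusted p of 0.445 to 0.922. The brightest of Nr2c2 averaged 1606 ± 199 in KO and 1400 ± 220.1 in wild-type pools.

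Retinoid receptors act as pairs of a Rar, which binds retinoic acid, and an Rxr. Rxrb, read by 1 probe set, gave 799.5, 1099 and 1055 in KO pools, against 1681, 1370 and 1324 in wild-type pools. All KO pools were lower and the groups did not overlap (−0.57, SE 0.14, adjusted p = 0.0334). The call was lost without KO replicate 1 (−0.43) or 3 (−0.63), without wild-type replicate 1 (−0.47) or 2 (−0.61), and with the replicate number as a block (adjusted p = 0.0608). Rxra read 141, 144 and 125 in KO pools, against 91.6, 101 and 100.3 in wild-type pools at probe set 1425762_a_at. Here the groups did not overlap and the KO pools were the higher, but the difference did not pass (0.48, SE 0.18, adjusted p = 0.189). Its brighter probe set gave 0.20 (SE 0.16, adjusted p = 0.586).

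Rarb, a receptor gene that retinoic acid itself induces, read 198, 173 and 235 in KO pools, against 137, 183 and 157 in wild-type pools, with overlapping groups (0.35, SE 0.18, adjusted p = 0.37). Rarg averaged 94 ± 11.3 in KO and 73.4 ± 11 in wild-type pools (0.36, SE 0.22, adjusted p = 0.447). Rara and Rxrg were not tested, their highest values over all pools being 17.5 and 27.9. Of the 12 tested genes for making, breaking down and binding retinoic acid, 1 rose, 3 fell and 8 did not pass. Over all genes 5.41% were called. Aldh1a2, which makes retinoic acid and was the brightest of the 12, averaged 4524 in KO and 4282 in wild-type pools (0.08, adjusted p = 0.748). Cyp26b1, which breaks retinoic acid down, rose to 798 ± 25.1 in KO pools, against 270.2 ± 16.3 in wild-type pools (1.56, SE 0.12, adjusted p = 2.23e-05). Aldh1a1, which makes it, was 489 ± 98.5 in KO and 1226 ± 502 in wild-type pools (−1.26, SE 0.25, adjusted p = 0.0112), a call lost without wild-type replicate 1 (−1.21). Dhrs3, which returns retinaldehyde to retinol, fell too (−0.86, SE 0.19, adjusted p = 0.0178) and passed in 2 of the 6 fits with 1 pool left out, being lost without KO replicate 1 (−0.82) or 3 (−0.83) or wild-type replicate 1 (−0.89) or 2 (−0.79). Rdh10, which makes retinaldehyde, is the remaining gene that fell and was chosen after its values were seen (−0.70, SE 0.13, adjusted p = 0.00776).

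Of the 5 steroid hormone receptor genes, Nr3c1 was measured above the dim limit and the other 4 were not. Nr3c1, the glucocorticoid receptor gene, had 3 tested probe sets, and none passed (0.24 to 0.41, adjusted p of 0.348 to 0.737). At probe set 1460303_at it read 123, 133 and 129 in KO pools, against 94.6, 78.9 and 121 in wild-type pools. The groups did not overlap, with wild-type replicate 3 close below the KO pools. Nr3c2, the mineralocorticoid receptor gene, Esr1 and Esr2, the estrogen receptor genes, and Pgr, the progesterone receptor gene, had no probe set above the dim limit. The highest value of Esr1 was 27.4 and that of Pgr 45.6, both in a wild-type pool. Of 9 tested genes for steroid receptor chaperones and glucocorticoid response, 1 rose and 1 fell, where 5.41% of all genes were called. Cebpd, a transcription factor gene that glucocorticoids induce, fell (−0.58, SE 0.15, adjusted p = 0.0493), and Hsd11b2, which inactivates glucocorticoids, rose (0.56, SE 0.14, adjusted p = 0.0413). Each passed in 1 of the 6 fits with 1 pool left out. Cebpd passed when wild-type replicate 3 was the pool left out (−0.64 to −0.46 in the others), and Hsd11b2 when wild-type replicate 1 was (0.45 to 0.58 in the others). Neither passed after scaling to a common median (adjusted p = 0.0546 for Cebpd and 0.0636 for Hsd11b2), with values as deposited (0.465 and 0.198) or with the replicate number as a block (0.0687 and 0.0517), and Hsd11b2 did not under quantile normalization (0.0589).

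The estrogen-related receptors regulate energy metabolism and, in Esrrb, pluripotent cells. None of their 5 tested probe sets passed. At 1 of its probe sets Esrrg read 138, 35.7 and 53.9 in KO pools, against 21.1, 48.6 and 26.5 in wild-type pools (1.10, SE 0.46, adjusted p = 0.231). KO replicate 1 alone was far above the others and the groups overlapped, while a further Esrrg probe set gave −0.28. Esrra and Esrrb gave −0.39 to 0.38. Their coactivators Ppargc1a and Ppargc1b stand in a list of other coregulators. Of 33 tested there, 0 rose and 3 fell, where 5.41% of all genes were called. Ppargc1b read 90.9, 93.7 and 86.3 in KO pools, against 207, 243 and 143 in wild-type pools, with no overlap (−1.10, SE 0.21, adjusted p = 0.0099). Ppargc1a, a coactivator of genes for mitochondria, read 66.4, 55.2 and 51.4 in KO pools, against 95.8, 126 and 139 in wild-type pools (−1.05, SE 0.23, adjusted p = 0.0181). Lcor, a ligand-dependent corepressor, fell by 0.48 on the log2 scale (SE 0.12, adjusted p = 0.0362). Each was refitted 6 times with 1 pool dropped, and the calls held 5, 3 and 1 times in that order of naming. Ppargc1b was lost without wild-type replicate 1 (−1.05). Ppargc1a was lost without KO replicate 2 (−1.03) or 3 (−0.97) or wild-type replicate 2 (−1.01). Lcor passed only when wild-type replicate 2 was left out, and its other values were −0.53 to −0.39.

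Among other nuclear receptors, 4 of 12 listed were tested. Nr5a1 read 802, 727 and 601 in KO and 1419, 2060 and 1517 in wild-type pools (−1.22, SE 0.15, adjusted p = 0.000492). Nr0b1, its repressor, read 10.9, 24.3 and 14.3 in KO and 115, 148 and 93.0 in wild-type pools (−2.90, SE 0.34, adjusted p = 0.000303). All its KO values lay below the dim limit of 26.4, so it was tested through its wild-type values. The size of its fall depends on the floor set for low intensities (−2.05 with the floor at the 40th percentile). Both genes passed in all 6 fits with 1 pool left out. With no filter neither passed (adjusted p = 0.111 for Nr5a1 and 0.0835 for Nr0b1), and Nr0b1 was not tested with the lowest 60% left out.

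None of the thyroid hormone and vitamin D receptor genes passed. Thra, a thyroid hormone receptor gene, averaged 368 ± 14.5 in KO and 395 ± 74.8 in wild-type pools at its brightest probe set (−0.09, SE 0.15, adjusted p = 0.833). At probe set 1426997_at it read 113, 125 and 147 in KO pools, against 93.6, 102 and 106 in wild-type pools, which did not overlap (0.35, adjusted p = 0.39). Thrb gave 0.10 and the 2 Vdr probe sets 0.36 and 0.34, and no value of these probe sets was above 63.3.

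Lipid-sensing receptors regulate genes of lipid handling. The receptor genes Ppard (−0.25, SE 0.28, adjusted p = 0.718) and Hnf4a (0.02, SE 0.27, adjusted p = 0.98) had 1 tested probe set each, at means of 36.4 to 42.8. Nr1h3, an oxysterol receptor gene, and Ppara and Pparg, fatty acid receptor genes, had none. The single Pparg probe set was at the intensity floor of 7.99 in all 6 pools. Of 13 tested target genes of these receptors, 0 rose and 2 fell, where 5.41% of all genes were called. Lpl, the lipase that releases fatty acids from lipoproteins, read 2069, 2078 and 2559 in KO pools, against 4302, 4740 and 3980 in wild-type pools (−0.96, SE 0.10, adjusted p = 0.000183). Its groups did not overlap, and it passed in all 6 fits with 1 pool left out. Abca1, which exports cholesterol, fell by 0.61 on the log2 scale (SE 0.16, adjusted p = 0.0409) and passed in 1 of the 6, that without wild-type replicate 3, with values of −0.71 to −0.51 in the others. It was lost with the replicate number as a block (adjusted p = 0.0681).

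Nr1d1 and Nr1d2 repress, and the Ror receptors activate, the same clock genes. Nr1d2 read 346, 320.0 and 417 in KO pools, against 274, 251 and 254 in wild-type pools. The groups did not overlap, but the difference did not pass (0.47, SE 0.15, adjusted p = 0.112). The 3 tested Rora probe sets gave −0.18, 0.02 and 0.60 (adjusted p of 0.333 to 0.98), and that of 0.60 was the dimmest, at 36.6, 34.9 and 45.2 in KO against 24.5, 24.1 and 28.3 in wild-type pools. Nr1d1 and Rorb were not tested. Of 13 tested clock partners, 0 rose and 1 fell, where 5.41% of all genes were called. Cry1, a repressor in the clock's core loop, read 345, 273 and 383 in KO pools, against 921, 893 and 864 in wild-type pools. The groups were far apart (−1.43, SE 0.14, adjusted p = 9.67e-05), and Cry1 passed in all 6 fits with 1 pool left out. Dbp, an output gene of the clock, did not pass (−0.59, SE 0.17, adjusted p = 0.0672). The labels do not give the hour at which fetuses were taken.

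**Figure D2:**
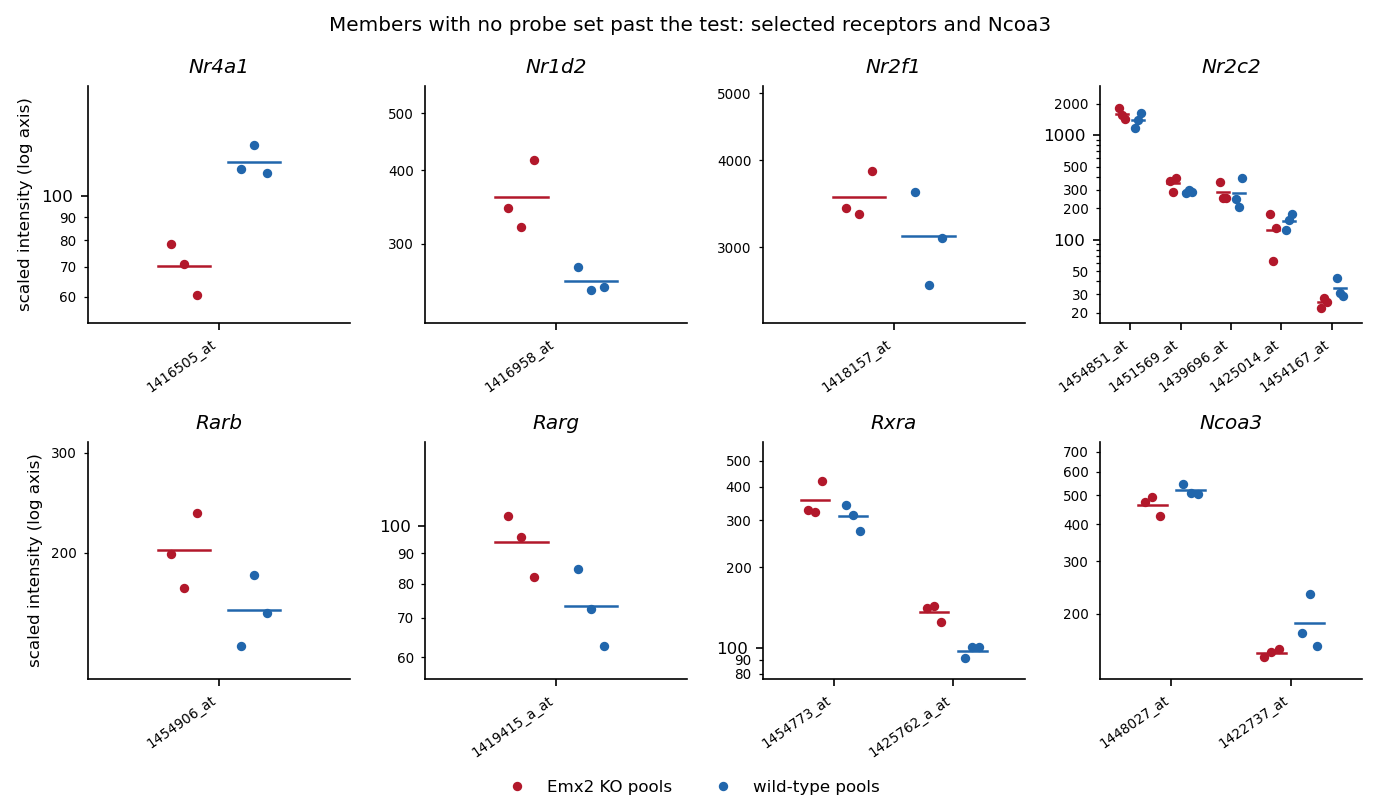
Scaled intensity (log axis) of every pool for tested probe sets of 8 members with no call, KO pools in red and wild-type pools in blue, with a bar at each group mean. Nr4a1 and Nr1d2 have groups that do not overlap, with adjusted p of 0.0526 and 0.112, whereas Nr2f1 and Rarb overlap.

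NR4A receptors are immediate early genes, transcribed within a short time of a stimulus without new protein. The RefSeq promoter windows (GRCm38.p6, 250 bases before to 50 after the start) of Nr4a1, on the plus strand at chr15:101266596-101266895, Nr4a2, on the minus strand at chr2:57123954-57124253, and Nr4a3, on the plus strand at chr4:48045055-48045354, are shown because these 3 genes are known for cAMP response elements. Capitals mark TGACG, the core of that element, and its reverse complement CGTCA.
Nr4a1: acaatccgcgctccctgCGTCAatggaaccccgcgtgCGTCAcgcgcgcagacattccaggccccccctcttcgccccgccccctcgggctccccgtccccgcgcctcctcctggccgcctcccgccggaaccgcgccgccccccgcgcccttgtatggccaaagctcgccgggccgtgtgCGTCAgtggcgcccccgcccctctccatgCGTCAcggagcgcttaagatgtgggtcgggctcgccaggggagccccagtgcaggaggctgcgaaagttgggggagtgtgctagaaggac
Nr4a2: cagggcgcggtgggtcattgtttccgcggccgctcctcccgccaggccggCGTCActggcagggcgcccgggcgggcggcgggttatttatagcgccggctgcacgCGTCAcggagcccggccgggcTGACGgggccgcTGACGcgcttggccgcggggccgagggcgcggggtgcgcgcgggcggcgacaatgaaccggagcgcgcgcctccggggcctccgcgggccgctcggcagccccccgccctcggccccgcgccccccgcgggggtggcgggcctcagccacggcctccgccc
Nr4a3: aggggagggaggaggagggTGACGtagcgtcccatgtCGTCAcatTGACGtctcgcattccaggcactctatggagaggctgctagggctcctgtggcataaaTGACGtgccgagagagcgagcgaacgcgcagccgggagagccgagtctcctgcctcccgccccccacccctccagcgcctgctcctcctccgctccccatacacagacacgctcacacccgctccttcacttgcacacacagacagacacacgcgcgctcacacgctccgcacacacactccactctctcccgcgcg
Each window holds 4 copies, counted on both strands. At least 4 were found in 3 of the 59 member windows and in 0.231% of all 32851 windows of this length. At least 1 copy was found in 27.1% of member windows and 20.8% of all windows. The full element, TGACGTCA, was found in 1 member window, of Nr6a1, and in 1.79% of all windows. TGACG contains a CpG, and the 3 windows hold 35, 52 and 26 CpG in the order shown, against a median of 7 over all windows.

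The NR4A genes with a tested probe set differed in the sign of their values. Nr4a2 read 366, 434 and 451 in KO pools, against 289.6, 199 and 222 in wild-type pools at probe set 1455034_at. All KO pools were higher and the groups did not overlap (0.83, SE 0.17, adjusted p = 0.0128). At 1447863_s_at it read 392, 427 and 386 in KO and 235, 329.8 and 243 in wild-type pools, again without overlap (0.59, SE 0.16, adjusted p = 0.0562). The dimmer 1450750_a_at and 1450749_a_at gave 0.21 and 0.13 with overlapping groups. The call was lost without KO replicate 2 (0.80, adjusted p = 0.056) or 3 (0.77, adjusted p = 0.0701). Nr4a1 read 78.7, 70.9 and 60.7 in KO pools, against 115, 129.7 and 113 in wild-type pools. The KO pools were all lower, and the test narrowly missed the threshold (−0.77, SE 0.21, adjusted p = 0.0526). It passed under quantile normalization (−0.82, adjusted p = 0.0359) and scaling to a common median (−0.80, adjusted p = 0.0478). Array weights and a fit with no intensity trend also gave a pass (adjusted p = 0.046 and 0.0494). It passed in 0 of the 6 fits with 1 pool left out, and not as deposited, with no filter or with the replicate block. Nor did it pass with the floor at the 40th percentile, a pseudocount of 16, or possibly cross-hybridising probe sets left out. With the lowest 60% left out it was too dim to be tested. Nr4a3 was not tested, its highest value being 15.9.

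Of 15 tested immediate early genes outside this family, 2 rose and 2 fell, where 5.41% of all genes were called. Jund read 2799, 2807 and 2687 in KO pools, against 4481, 4584 and 3790 in wild-type pools (−0.63, SE 0.09, adjusted p = 0.00148). Jun fell too (−0.76, SE 0.17, adjusted p = 0.0208). Myc, a growth regulator, rose to 170.2 ± 11.7 in KO pools, against 85.4 ± 33.7 in wild-type pools (1.08, SE 0.28, adjusted p = 0.0434). Fosl2, chosen after its values were seen, also rose (0.53, SE 0.14, adjusted p = 0.0463). With 1 pool left out Jund passed in all 6 fits, Jun in 2 (without KO replicate 2 or wild-type replicate 2; −0.74 to −0.65 in the other fits), Myc in 1 (without wild-type replicate 3; 0.72 to 1.19) and Fosl2 in 1 (without KO replicate 2; 0.46 to 0.62). Under quantile normalization Myc (adjusted p = 0.0577) and Fosl2 (adjusted p = 0.0618) did not pass, nor did Fosl2 after scaling to a common median (adjusted p = 0.0787).

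Coregulators gave 4 of the 8 called member probe sets, out of 11 tested (36.4%), where 4.68% of all tested probe sets were called. The 4 belong to Nrip1 and Ncoa2 and are not independent. At the brightest probe set 1 of the 4 coregulator genes, Nrip1, was called. Nrip1 encodes a ligand-dependent corepressor that recruits histone deacetylases and is needed in female mice for the release of the egg from the follicle. At its probe set of highest intensity (1434384_at) it read 3585, 3379 and 3832 in KO pools, against 2549, 2550 and 2719 in wild-type pools. All KO pools were higher, and the spread within each group was small (0.46, SE 0.09, adjusted p = 0.00676). At 1454295_at it read 582, 518 and 445 in KO pools, against 166, 200.2 and 302 in wild-type pools. The groups did not overlap, and the fold was the highest of any called member probe set (1.25, SE 0.20, adjusted p = 0.00325). At 1418469_at the values were 523, 661 and 547 in KO and 380.2, 384 and 356 in wild-type pools, with no overlap (0.62, SE 0.14, adjusted p = 0.0186). At 1449089_at the KO pools were also all higher, at 2462, 1934 and 2554 against 1683, 1875 and 1802 in wild-type pools, but the test was not passed (0.37, SE 0.11, adjusted p = 0.0984).

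The tested probe sets of Nrip1 shared a direction but differed in size from 0.37 to 1.25. Probe sets 1434384_at and 1454295_at passed in all 6 fits with 1 pool left out and were the members' 2 probe sets to do so. Probe set 1418469_at did not pass without KO replicate 2 (0.52) or 3 (0.66) or wild-type replicate 1 (0.63). As deposited, without rescaling, 1434384_at and 1418469_at did not pass (adjusted p = 0.154 and 0.131) and 1454295_at did (adjusted p = 7.79e-05). Every RefSeq promoter window (GRCm38.p6) of the 3 members called at their brightest probe set is shown, with TGACG and CGTCA in capitals as before. Nrip1 has 2 windows, at chr16:76373778-76374077 and chr16:76373000-76373299 on the minus strand, Nr2f2 has 1, at chr7:70366697-70366996 on the minus strand, and Rxrb has 2, at chr17:34031562-34031861 and chr17:34032100-34032399 on the plus strand.
Nrip1, start 76373778: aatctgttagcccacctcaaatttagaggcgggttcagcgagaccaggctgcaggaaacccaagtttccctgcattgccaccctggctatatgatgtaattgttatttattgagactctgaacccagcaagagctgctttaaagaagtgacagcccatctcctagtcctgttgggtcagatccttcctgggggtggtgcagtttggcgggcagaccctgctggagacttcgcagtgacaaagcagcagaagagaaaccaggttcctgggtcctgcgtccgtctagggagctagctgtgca
Nrip1, start 76373000: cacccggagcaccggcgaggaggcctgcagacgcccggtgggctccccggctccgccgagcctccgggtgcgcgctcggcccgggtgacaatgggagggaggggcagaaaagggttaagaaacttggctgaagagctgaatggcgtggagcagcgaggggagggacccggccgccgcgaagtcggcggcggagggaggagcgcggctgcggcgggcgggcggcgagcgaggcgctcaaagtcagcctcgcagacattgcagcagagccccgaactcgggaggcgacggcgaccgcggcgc
Nr2f2: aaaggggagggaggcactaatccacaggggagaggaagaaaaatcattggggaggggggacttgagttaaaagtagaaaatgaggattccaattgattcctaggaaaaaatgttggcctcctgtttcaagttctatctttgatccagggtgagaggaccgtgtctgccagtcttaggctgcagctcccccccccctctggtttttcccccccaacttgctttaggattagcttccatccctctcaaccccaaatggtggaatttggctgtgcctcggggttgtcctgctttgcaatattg
Rxrb, start 34031562: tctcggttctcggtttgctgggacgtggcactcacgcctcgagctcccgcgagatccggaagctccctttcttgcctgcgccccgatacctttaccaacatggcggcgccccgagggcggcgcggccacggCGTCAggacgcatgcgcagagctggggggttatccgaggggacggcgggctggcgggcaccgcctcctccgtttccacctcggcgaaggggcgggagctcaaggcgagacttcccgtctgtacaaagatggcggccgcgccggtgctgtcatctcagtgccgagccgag
Rxrb, start 34032100: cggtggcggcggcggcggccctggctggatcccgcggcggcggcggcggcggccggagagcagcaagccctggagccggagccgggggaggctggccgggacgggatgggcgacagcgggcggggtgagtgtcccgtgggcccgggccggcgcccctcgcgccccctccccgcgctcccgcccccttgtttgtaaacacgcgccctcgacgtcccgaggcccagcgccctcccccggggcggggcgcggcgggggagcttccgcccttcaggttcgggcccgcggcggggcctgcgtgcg
The Nrip1 windows hold 6 and 40 CpG in the order shown, the Nr2f2 window 2, and the Rxrb windows 37 and 47. TGACG or its reverse complement is in the Rxrb window with 37 CpG, in 1 copy, and in none of the other 4. AGGTCA, the core sequence that many nuclear receptors bind, was found on neither strand of these 5 windows, and in 9 of the 59 member windows (15.3%) and 16.3% of all windows. TAATTA, a homeodomain core, was found in 1 member window, of Hnf4a, and in 5.29% of all windows. Member windows, of 37 genes, had a median GC content of 60.3%, against 52.7% for all windows.

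Ncoa2, a p160-family coactivator of steroid receptors, read 404, 420.2 and 339.9 in KO pools, against 259, 223 and 274 in wild-type pools at probe set 1435234_at. The groups did not overlap and the KO pools were the higher (0.62, SE 0.15, adjusted p = 0.0345). Its brightest probe set, 1435233_at, read 1123, 1023 and 1151 in KO and 1067, 995 and 1088 in wild-type pools, which overlapped (0.07, SE 0.11, adjusted p = 0.817). The remaining probe set, 1446827_at, gave 0.30 (adjusted p = 0.425), so the rise rests on 1 of 3 probe sets, and the files do not say where each lies on the transcript. The call was lost without KO replicate 1 (0.59) or 2 (0.56), without wild-type replicate 1 (0.64) or 2 (0.53), under quantile normalization (adjusted p = 0.0562) and with the replicate number as a block (adjusted p = 0.067). Ncoa1, its close relative, gave 0.03 and 0.06 with overlapping groups. Ncoa3, the remaining relative, read 473, 494 and 425 in KO pools, against 544, 509 and 506 in wild-type pools at its brighter probe set. All KO pools were lower there and at the other probe set, and neither passed (−0.17 and −0.31, adjusted p = 0.565 and 0.44).

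**Figure D3:**
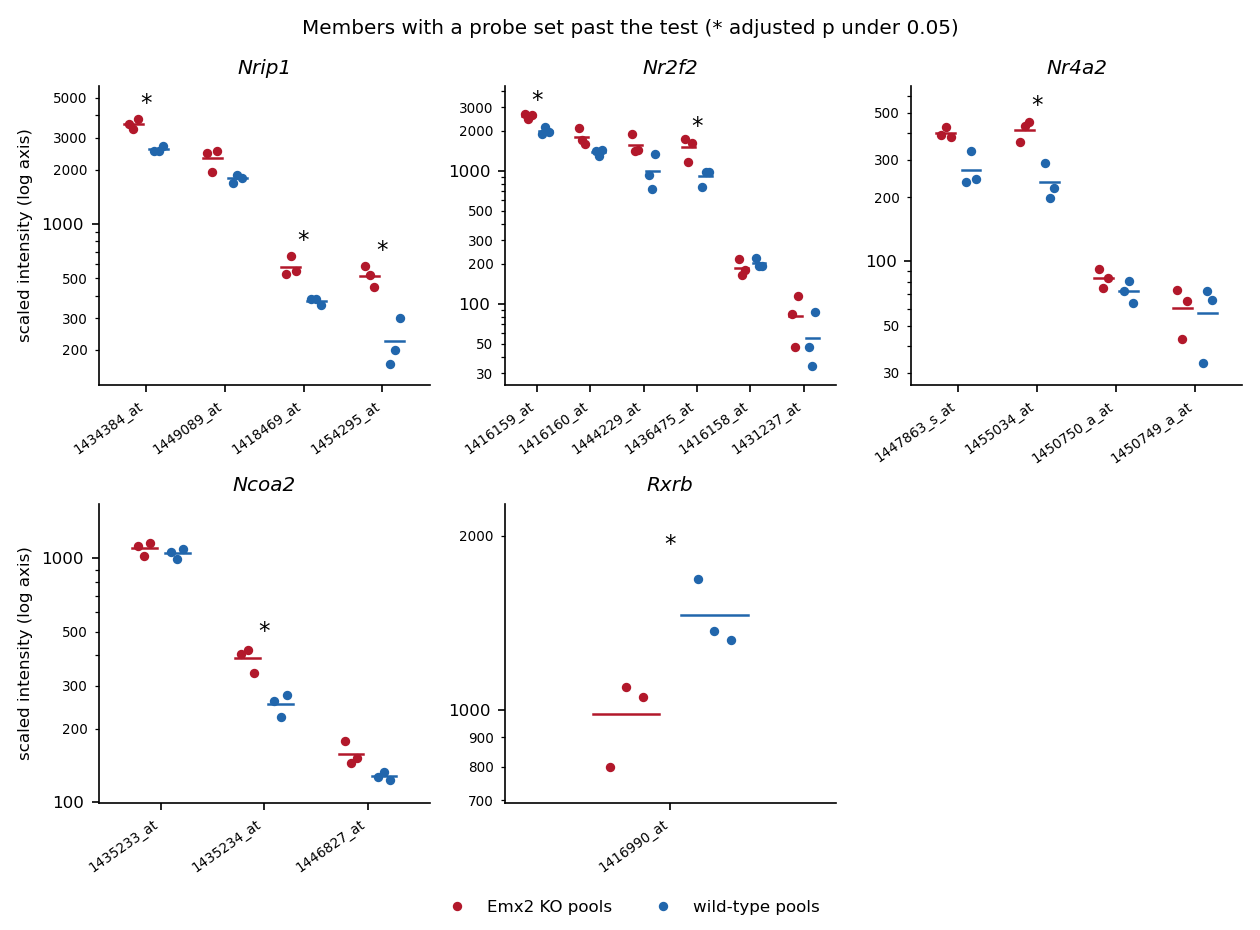
Scaled intensity (log axis) in every pool for all tested probe sets of the 5 members with a call, KO pools in red and wild-type pools in blue, with a bar at each group mean and an asterisk at adjusted p under 0.05. KO pools lie above wild-type pools at all 4 Nrip1 probe sets and below them at Rxrb, and the 2 dimmest Nr2f2 probe sets overlap.

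The 12 genes with no tested probe set were Rara, Rxrg, Nr3c2, Esr1, Esr2, Pgr, Nr1h3, Ppara, Pparg, Nr1d1, Rorb and Nr4a3. Of the 132 values of their 22 probe sets, 8 lay above the dim limit. For these genes a difference was not detectable at this signal.

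**Figure D4:**
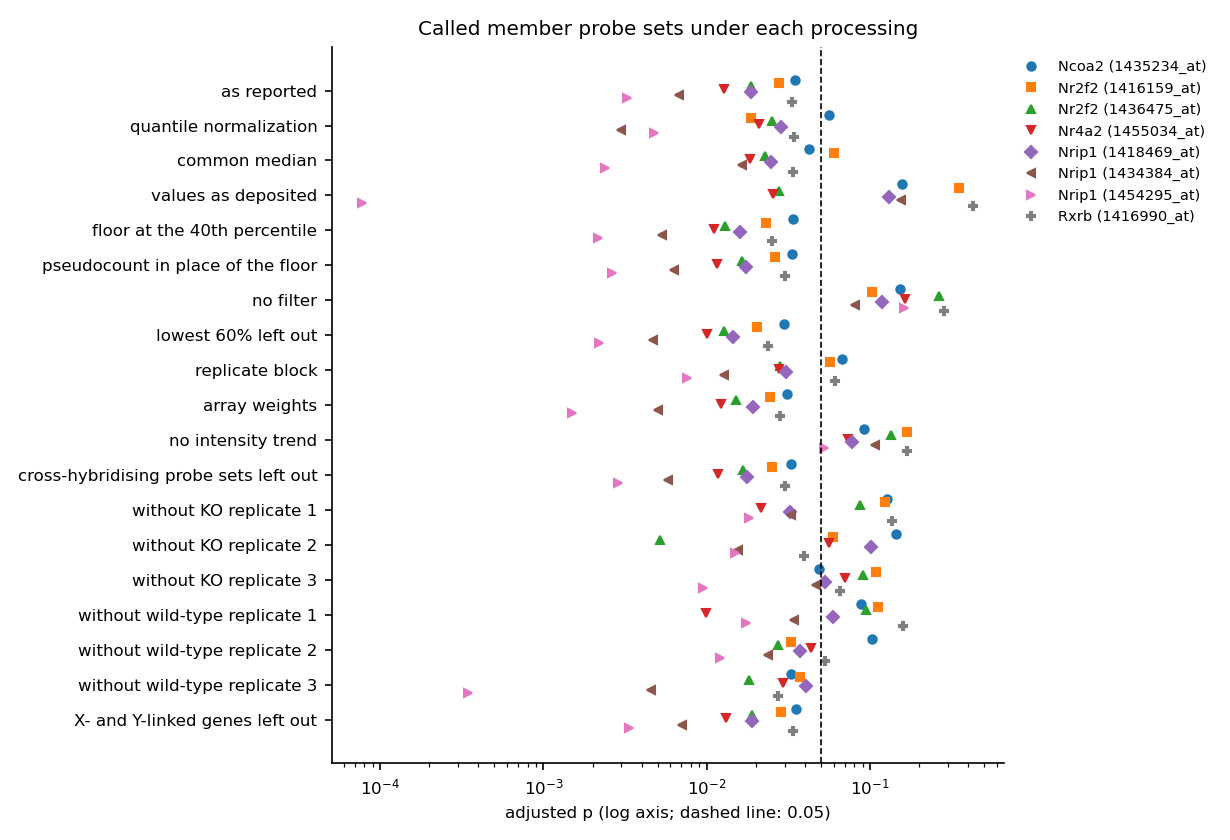
Adjusted p (log axis) of the 8 called member probe sets under each processing, with a dashed line at 0.05. All 8 lie right of the line with no filter and with no intensity trend, and Nrip1 1434384_at and 1454295_at lie left of it with any 1 pool left out.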

How the data were processed

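Gene expression was measured on 6 arrays of 45101 probe sets, 1 per pool. Per the labels' protocols, each pool's 15 ng of RNA was amplified in 2 rounds and labelled, which can lower the reading of probe sets away from the transcript's 3' end. The authors deposited a single linear intensity for each probe set on each array. The submitters' processing notes name GCOS 1.2, and no source used here gives its algorithm, scaling or filters.

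The deposited arrays were not at a common level (the highest 2% trimmed mean was 1.47 times the lowest), so each was rescaled to 309.2. Low values were raised to a floor at the 20th percentile, 7.99, before logs to base 2. After removal of 64 control probe sets and of the dimmest 40% by mean log2 value, 27022 remained. The groups were tested using limma 3.58.1 under R 4.3.3, with lmFit and a trended eBayes, two-sided, and p-values were adjusted by Benjamini-Hochberg over all tested probe sets. A log2 fold change is the KO mean minus the wild-type mean of log2 values, whereas means and SDs are on the scaled intensity. The median SE was 0.188, and the number of arrays limits the precision.

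Genes were named from the platform annotation (34958 probe sets with 1 symbol, 932 with several, 9211 with none). The members, their roles and the gene lists were chosen with earlier results of these data known. Every member is reported. From each pathway list the text names up to 3 called genes with the greatest change, and the lowest p-values make up the number to 2. Cell type marker lists are given by counts and summed intensity, and the called genes of the epithelium list, outside that rule, were chosen after their values were seen. On simulated arrays of the 27022 probe sets, 47 of 100 changes of 2-fold and 85 of 100 of 4-fold were recovered, with 6 false calls. Alternatives were other normalizations, floors, filters, moderation, a replicate block, array weights, a threshold of 0.1, possibly cross-hybridising probe sets left out, probe sets averaged per gene, and each pool left out. Leaving out genes of the X and Y chromosomes was added after seeing the data.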

Additional observations from a re-analysis of the deposited data

How the results depend on the processing

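No called member probe set changed direction under any alternative run. All 8 called member probe sets held with the floor at the 40th percentile, a pseudocount of 16, the lowest 60% left out, array weights, possibly cross-hybridising probe sets left out, and genes of the X and Y chromosomes removed, the last chosen after seeing the data. With no filter 151 probe sets were called in all, and 0 members in either direction and 0 member genes at the brightest probe set, while 17 member probe sets had an unadjusted p under 0.05, as in the reported fit. With no intensity trend 541 were called in all, 1 member probe set, 1 member gene, and 0 higher; the member was Nr4a1 (−0.77, adjusted p = 0.0494). With values as deposited 4 member probe sets were called, 4 higher and 0 lower, and 0 member genes at the brightest probe set; Ncoa2 (adjusted p = 0.158), Nr2f2 at 1416159_at (adjusted p = 0.351) and Rxrb (adjusted p = 0.428) were among those lost. At a threshold of 0.1, 1939 were called in all and 13 member probe sets, 11 higher and 2 lower, with 5 member genes. Under quantile normalization, a common median and array weights 2 members were lower in each, the added one being Nr4a1. Averaging the tested probe sets of a gene called 3 member genes, Nrip1, Rxrb and Nr4a1, so Nr2f2 was lost (0.43, adjusted p = 0.108). Of the 18 called genes of the pathway lists, none changed direction in any fit on all 6 pools, 15 passed under quantile normalization, 15 after a common median, 15 with the replicate block, 9 with no intensity trend, 8 as deposited and 2 with no filter. The cause of these changes was not tested. By construction the threshold changes the number of calls and no filter changes the number of tests. No filter also brings dim probe sets into the variance fit, and the part of each in the lost calls was not tested.

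Deviations from the group means correlated by −0.07, 0.04 and −0.05 between pools of the same replicate number, for numbers 1, 2 and 3. Pools of different numbers gave −0.08 to 0.13. With 3 pools per group these values cannot decide whether the same number marks paired pools. With the replicate block 6 member probe sets were called, 0 of them lower, and 1 member gene at the brightest probe set.

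With 1 pool left out the calls in all ranged from 721 to 1687, member probe sets from 3 to 10, those higher from 3 to 9, those lower from 0 to 1, and member genes at the brightest probe set from 1 to 4. A fit with 1 pool left out has fewer samples by construction. Of the 61 tested member probe sets, 6 changed sign under some other scaling, none of them called. The median log2 fold change of all probe sets was 0.01 as reported and 0.10 as deposited.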
